A study of Bos taurus with 63 samples.

Results

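Transcripts of 4 cytokines were followed in the blood leukocytes of German Holstein dams and newborn female calves. They were *IL1B* (ENSBTAG00000001321), *CXCL8* (ENSBTAG00000019716), *TNF* (ENSBTAG00000025471) and *IL10* (ENSBTAG00000006685), which are 4 of the 23010 genes in the counts. They were taken by identifier, as cytokines of the inflammatory response, by a choice made with earlier results of these data known. The animals compared were 19 control dams, 12 dams with direct heat stress (HS) and 30 control calves. A dam counted as heat stressed when the daily mean temperature-humidity index (THI) of the day preceding its sampling reached 60, and as a control below that. All dams were dry and close to calving, and the calves were sampled soon after birth. The labels put the control calves without HS but do not say whether this is about the calf or about its dam before birth. As HS followed from the weather, HS and season of sampling cannot be told apart here. The calves may be daughters of the dams compared, but the labels do not tie calves to dams, and they were tested as independent animals. HS-IU_1804, a dam with no HS status in its label that the study also left out, and HS-IU_2048, 1 calf labelled as heat stressed, entered no comparison.

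*IL1B* encodes interleukin-1 beta, a cytokine of monocytes and neutrophils that is made as a precursor and cut by caspase-1 before it acts in fever and acute inflammation. *TNF* encodes tumor necrosis factor, an early signal of activated macrophages and lymphocytes. *CXCL8* encodes the chemokine interleukin-8, which attracts neutrophils through CXCR1 and CXCR2. *IL10* encodes interleukin-10, which dampens the production of the other cytokines. In leukocytes, bacterial products that bind Toll-like receptors switch on these genes by way of NF-kappaB, and their transcripts are mostly short-lived.

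Each library came from 1 animal, and the labels give the same batch for every library. The libraries held between 4340680 and 14206517 reads on genes in control dams, 4427037 and 10569898 under direct HS, and 5417064 and 19584521 in control calves. The blood was labelled as whole blood, and red cells were lysed before RNA isolation. As the reference at hand did not pair other identifiers of the counts with names, leukocyte markers were not checked. In such bulk samples, fewer cells of a type and less RNA per cell cannot be told apart.

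None of the 4 genes was too low to test. Genes were tested when their mean count over the libraries compared was at least 14, and every one of the 61 animals had reads on each member. *IL1B* had between 788 and 7980 reads per animal, *CXCL8* between 12 and 643, and *TNF* between 39 and 548. *IL10* had the fewest reads in most animals, namely 3 to 74 in control dams, 10 to 56 under direct HS and 8 to 100 in control calves. At so few reads, single values of *IL10* carry a large counting error, as do the lowest values of *CXCL8* and *TNF*. Levels are given as CPM, the reads of a gene relative to the library total, after TMM normalization, which scales libraries to each other by the bulk of their genes. As transcript lengths were not used, levels are compared between animals and not between genes.

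*TNF*, the early signal of activated macrophages, had a highest value 2.71 times the lowest among control dams. It ranged from 12.1 CPM in HS-IU_1622 to 32.9 CPM in HS-IU_1712, with a median of 23.2 CPM. In dams with direct HS it ranged from 8.22 CPM in HS-IU_1516 to 25.4 CPM in HS-IU_1568, with a median of 14.03 CPM. In control calves it ranged from 5.10 CPM in HS-IU_2044 to 28.6 CPM in HS-IU_2016, with a median of 16.7 CPM. The ranges overlapped, but 11 of the 12 dams with direct HS and 29 of the 30 control calves were below the median of the control dams. Below the lowest control dam were 5 dams with direct HS and 9 control calves.

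*IL1B*, the cytokine of fever and acute inflammation, had its lowest median in calves. It ranged from 153 CPM in HS-IU_1828 to 953 CPM in HS-IU_1700 in control dams (median 430 CPM). In dams with direct HS, it ranged from 181 CPM in HS-IU_1516 to 965 CPM in HS-IU_1835 (median 393 CPM). In control calves, it ranged from 108 CPM in HS-IU_2029 to 938 CPM in HS-IU_2038 (median 254 CPM). HS-IU_2038 stood apart from the other calves, of which the next highest, HS-IU_2007, had 564 CPM. Of the 30 control calves, 26 were below the median of the control dams.

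The neutrophil chemokine *CXCL8* had the largest SD of log2 CPM of the 4 cytokines in each group, although the ratio of the highest to the lowest value was larger for *IL10* in both groups of dams. In control dams it ranged from 4.20 CPM in HS-IU_1808 to 61.7 CPM in HS-IU_1577, with a median of 15.97 CPM. In dams with direct HS it ranged from 12.6 CPM in HS-IU_1863 to 72.6 CPM in HS-IU_1835, with a median of 29.4 CPM. In control calves it ranged from 1.98 CPM in HS-IU_2013 to 117 CPM in HS-IU_2015, with a median of 22.3 CPM. Of the dams with direct HS, 11 of 12 were above the median of the control dams, and 8 of the 19 control dams were below the lowest dam with direct HS. Among the control dams, HS-IU_1577 stood apart from the next highest, HS-IU_1463, which had 37.0 CPM.

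*IL10*, the anti-inflammatory member, ranged from 0.414 CPM in HS-IU_1662 to 7.77 CPM in HS-IU_1622 in control dams, with a median of 2.50 CPM. In dams with direct HS, it ranged from 1.67 CPM in HS-IU_1568 to 11.3 CPM in HS-IU_1837, with a median of 4.10 CPM. In control calves, it ranged from 1.16 CPM in HS-IU_2032 to 12.4 CPM in HS-IU_2041, with a median of 4.14 CPM. Above the median of the control dams were 10 of 12 dams with direct HS and 25 of 30 control calves. Only 1 dam with direct HS and 3 calves were above the highest control dam.

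**Figure D1:**
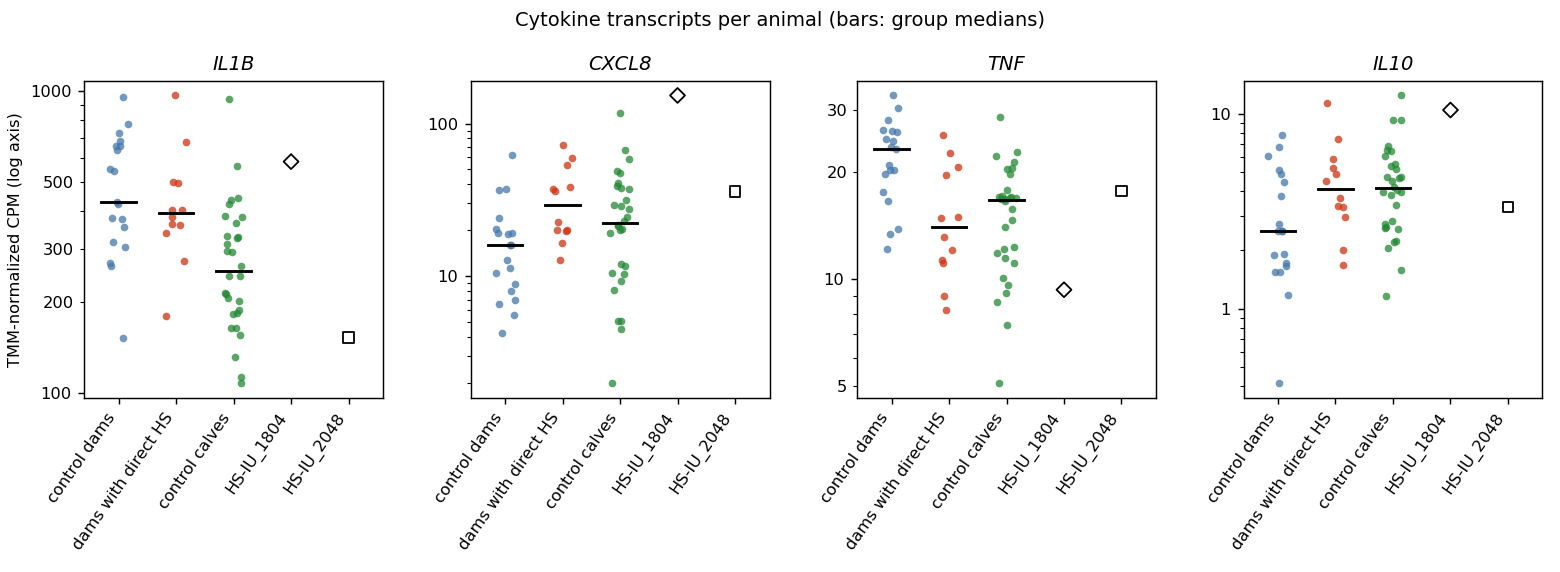
TMM-normalized CPM (log axis) of the 4 cytokines in each animal. Points are animals, bars are the medians of the 3 groups, and the open symbols are HS-IU_1804 and HS-IU_2048, which entered no comparison. *TNF* medians were 23.2 CPM in control dams, 14.03 CPM in dams with direct HS and 16.7 CPM in control calves, and the groups overlapped in every gene.

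The first question was whether the cytokines differed between dams with direct HS and control dams. Mean *TNF* was 22.1 ± 5.72 CPM (SD, n = 19) in control dams and 15.3 ± 5.58 CPM (SD, n = 12) under direct HS. The log2 fold change was -0.54 (SE 0.16), a level of 0.687 times that of control dams with a 95% interval from 0.549 to 0.861. This narrowly missed the threshold of an adjusted p of 0.05 in the quasi-likelihood test of edgeR, adjusted over 11645 genes by Benjamini-Hochberg (p = 0.00180, adjusted p = 0.0587). Mean *CXCL8* was 18.1 ± 14.1 CPM in control dams and 34.1 ± 19.2 CPM under direct HS. The log2 fold change of 0.90 (SE 0.32) is a level 1.87 times that of control dams, with a 95% interval from 1.196 to 2.92 (edgeR, p = 0.00743, adjusted p = 0.113).

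Mean *IL10* was 3.21 ± 2.07 CPM in control dams and 4.69 ± 2.65 CPM under direct HS. The log2 fold change was 0.51 (SE 0.30, adjusted p = 0.358), and its 95% interval from -0.10 to 1.13 holds 0. The paper counts *IL10* among the genes that contributed to its enriched processes under direct HS. That result came from more dams and from a model with covariates that could not be fitted here. Mean *IL1B* was 497 ± 211 CPM in control dams and 446 ± 205 CPM under direct HS. The log2 fold change was -0.16 (SE 0.22, adjusted p = 0.735), and its 95% interval ranged from -0.61 to 0.28. It was -0.31 without HS-IU_1835 and -0.08 without HS-IU_1516, both dams with direct HS. The spread between dams thus allows a level of *IL1B* from 0.655 to 1.22 times that of control dams.

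In edgeR's test, 0 of the 4 cytokines passed an adjusted p of 0.05 between dams with direct HS and control dams, where 2.66% of all genes did (1.9% lower and 0.764% higher with direct HS). The 310 genes behind this share became 130 without HS-IU_1516 and 599 without HS-IU_1568. With an absolute log2 fold change above 0.58 as a further limit, the number was 0 of 4, against 0.395% of all genes. An adjusted p of 0.1 was passed by *TNF* alone, against 5.42% of all genes. An unadjusted p of 0.05 was passed by *TNF* and *CXCL8*, against 19.3% of all genes. *TNF* passed the adjusted p of 0.05 in DESeq2 (adjusted p = 0.0257), as did 503 genes in all, and in limma-voom (adjusted p = 0.0484), as did 334 genes, and 9 alternatives gave it an adjusted p between 0.0257 and 0.139. The same alternatives gave *CXCL8* an adjusted p between 0.0593 and 0.254.

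Single dams moved these results across the threshold. Without the control dam HS-IU_1577, which had the highest *CXCL8* of its group, the log2 fold change of *CXCL8* was 1.11 (SE 0.29, adjusted p = 0.0291 in edgeR), and with each of the other 30 dams left out it did not pass. *TNF* passed in 7 of 31 fits with 1 dam left out. These were the fits without the control dams HS-IU_1457, HS-IU_1577, HS-IU_1622 or HS-IU_1828, each with *TNF* below the median of its group, and without the dams with direct HS HS-IU_1568, HS-IU_1844 or HS-IU_1853, which had the highest *TNF* of theirs. Without HS-IU_1568 the log2 fold change was -0.63 (adjusted p = 0.0171), and without HS-IU_1516, the dam with the lowest *TNF*, it was -0.47 (adjusted p = 0.1204). *IL1B* and *IL10* passed in 0 of 31 such fits.

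**Figure D2:**
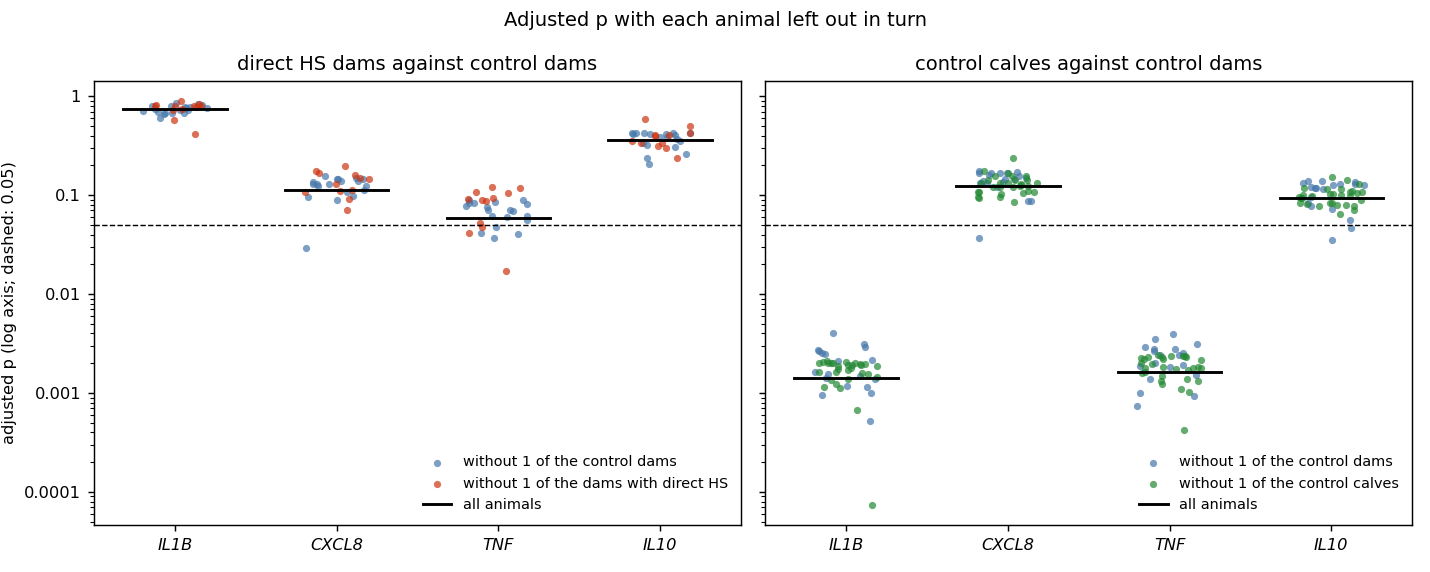
Adjusted p (log axis) of edgeR's test for each cytokine, with each animal left out in turn (points, coloured by the group of the animal left out) and with all animals (bars). The dashed line is an adjusted p of 0.05. In dams, *TNF* lay around the line, from 0.0171 to 0.1204, and in calves against control dams *IL1B* and *TNF* stayed below it in 49 of 49 fits.

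The second question was whether control calves differed from control dams. *IL1B* was lower in calves, with 497 ± 211 CPM (SD, n = 19) in control dams and 293 ± 165 CPM (SD, n = 30) in calves. The difference was -0.76 on the log2 scale (SE 0.19, edgeR over 11762 genes, adjusted p = 0.00141), a level of 0.589 times that of control dams with a 95% interval from 0.450 to 0.772. *TNF* was also lower in calves, with 22.1 ± 5.72 CPM in control dams and 15.4 ± 5.22 CPM in calves. The difference was -0.52 on the log2 scale (SE 0.13, adjusted p = 0.00162), or 0.697 times the level of control dams with a 95% interval from 0.579 to 0.840. Both calls held in 49 of 49 fits with 1 animal left out and in 10 of 10 other settings.

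*CXCL8* and *IL10* had higher means in calves, and neither passed. *CXCL8* had 27.9 ± 23.6 CPM in calves, which is 0.62 above control dams on the log2 scale (SE 0.33, adjusted p = 0.125) with a 95% interval from -0.03 to 1.27. Its value depended on single animals, as it was 0.46 (adjusted p = 0.238) without the calf HS-IU_2015 and 0.83 (adjusted p = 0.0366) without the control dam HS-IU_1577. *IL10* had 4.59 ± 2.50 CPM in calves, which is 0.50 above control dams on the log2 scale (SE 0.24, adjusted p = 0.0937) with a 95% interval from 0.02 to 0.98. *IL10* passed without the control dam HS-IU_1622 (log2 fold change 0.62, adjusted p = 0.0352) and without HS-IU_1725 (0.59, adjusted p = 0.0471), the 2 control dams with the highest *IL10*. Of 391 values at least 8 times the median of the control calves in 11736 genes, HS-IU_2015 held 167, HS-IU_2008 held 28 and HS-IU_2010 held 22, with a median of 7 per calf. Without these 3 calves, the log2 fold changes were 0.44 for *CXCL8* (adjusted p = 0.278), 0.42 for *IL10* (adjusted p = 0.177), -0.79 for *IL1B* (adjusted p = 0.00159) and -0.53 for *TNF* (adjusted p = 0.00155).

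Between control calves and control dams, 2 of the 4 cytokines passed an adjusted p of 0.05, against 39.7% of all genes (17.4% lower and 22.3% higher in calves). With an absolute log2 fold change above 0.58, *IL1B* alone passed, against 15.8% of all genes. At an adjusted p of 0.1, 3 of 4 passed, against 46.7% of all genes, and at an unadjusted p of 0.05 also 3 of 4, against 47.4%. With so many genes different between the generations, these shares do not set the cytokines apart from other genes.

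Dams with direct HS and control calves were then compared in a fit of the 3 groups together, a comparison chosen after the data had been seen. These groups differ in both age and HS, which cannot be told apart in this comparison. *IL1B* was higher in dams with direct HS, by 0.60 on the log2 scale (SE 0.22, edgeR, adjusted p = 0.0256). This was 1 of the 4 cytokines, against 37.1% of all genes. For the others, the differences were 0.29 for *CXCL8* (95% interval from -0.41 to 0.98), -0.02 for *TNF* (from -0.34 to 0.31) and 0.02 for *IL10* (from -0.52 to 0.57), all on the log2 scale.

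The order of the medians can be given from these comparisons. *IL1B* was highest in control dams, followed by dams with direct HS and by calves, with a difference past the threshold between dams with direct HS and calves but not between the groups of dams. For *CXCL8*, the order was dams with direct HS, control calves and control dams, and no neighbours differed beyond the spread between animals. For *TNF*, control dams were followed by control calves, which were lower, and by dams with direct HS, whose difference from the calves did not pass. For *IL10*, control calves and dams with direct HS had nearly equal medians and control dams the lowest, and no neighbours passed. Differences of calves and of dams with direct HS from control dams rest on the same 19 control dams.

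**Figure D3:**
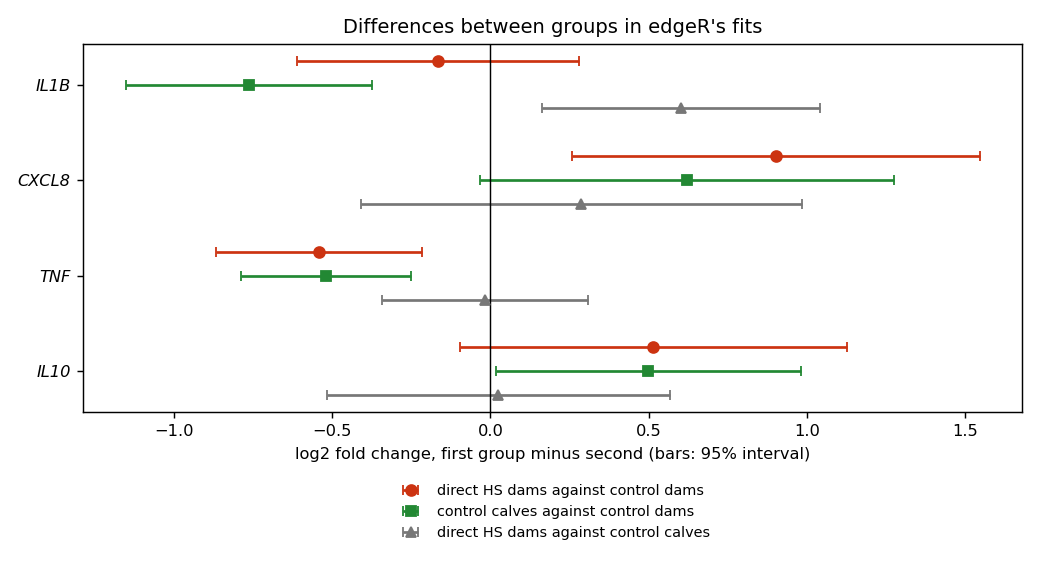
Log2 fold changes of the 4 cytokines between the groups in edgeR's fits (points) with their 95% intervals (bars), for each pair of groups. Both comparisons with control dams gave values below 0 for *TNF* (-0.54 and -0.52) and above 0 for *CXCL8* (0.90 and 0.62) and *IL10* (0.51 and 0.50), with the same control dams in both.

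A level of at least 4 times the median of the group was found in 1 animal and gene, *CXCL8* of the control calf HS-IU_2015, which was 5.23 times the median of the calves and made up 13.9% of their summed *CXCL8*. In CPM by library size alone, this calf had 78.4 CPM, still the highest of the calves but below 4 times their median. HS-IU_2015 also had the third highest *IL10* of the calves (9.26 CPM), while its *TNF* was 9.62 CPM. By library size alone, its *IL10* was 6.21 CPM, below that of 3 calves, and its *TNF* was 6.46 CPM, above that of HS-IU_2044 alone. The calves HS-IU_2043 and HS-IU_2044 had the next highest *CXCL8* (66.9 and 58.4 CPM) and, after TMM normalization, the lowest *TNF* (7.45 and 5.10 CPM).

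Among the dams with direct HS, HS-IU_1835 had both the highest *IL1B* and the highest *CXCL8*. HS-IU_1800 and HS-IU_1837 followed in *CXCL8* (59.9 and 53.7 CPM) and had the second and the highest *IL10* (7.42 and 11.3 CPM), with *TNF* of 9.004 and 11.1 CPM. HS-IU_1516 had the lowest *IL1B* and the lowest *TNF* of this group. HS-IU_1568, in contrast, had the highest *TNF* and the lowest *IL10* of the dams with direct HS. Among the control dams, HS-IU_1622 had the highest *IL10* and the lowest *TNF*, and HS-IU_1700 the highest *IL1B*.

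Spread between animals was also compared with that of the other genes, as the SD of log2 CPM within a group over 11754 genes whose mean count reached 14. For *CXCL8*, the SD was 0.99 in control dams, 0.80 in dams with direct HS and 1.28 in control calves, and 2.29%, 4.21% and 1.75% of genes had a larger one. For *IL10*, the SD was 0.91, 0.72 and 0.72 in the same order, with 3.22%, 5.91% and 14.4% of genes above it. For *IL1B*, the SD was 0.67, 0.61 and 0.70, with 8.54%, 10.3% and 15.98% of genes above it. For *TNF*, the SD was 0.40, 0.52 and 0.53, with 32.6%, 16.5% and 29.5% of genes above it. By this measure, *CXCL8* was among the most variable genes in every group, and *TNF* was nearer to the middle of all genes. The SD was not adjusted for the level of a gene, and counting error adds more to it in genes with few reads, such as *IL10*.

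When *CXCL8* and *TNF* were read together, 10 of the 12 dams with direct HS and 20 of the 30 control calves had *CXCL8* above and *TNF* below the medians of the control dams. This held for 5 of the 19 control dams. The reverse, with *CXCL8* below and *TNF* above, was found in 4 control dams, 0 dams with direct HS and 1 calf. These counts are a description, chosen after the levels had been seen.

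**Figure D4:**
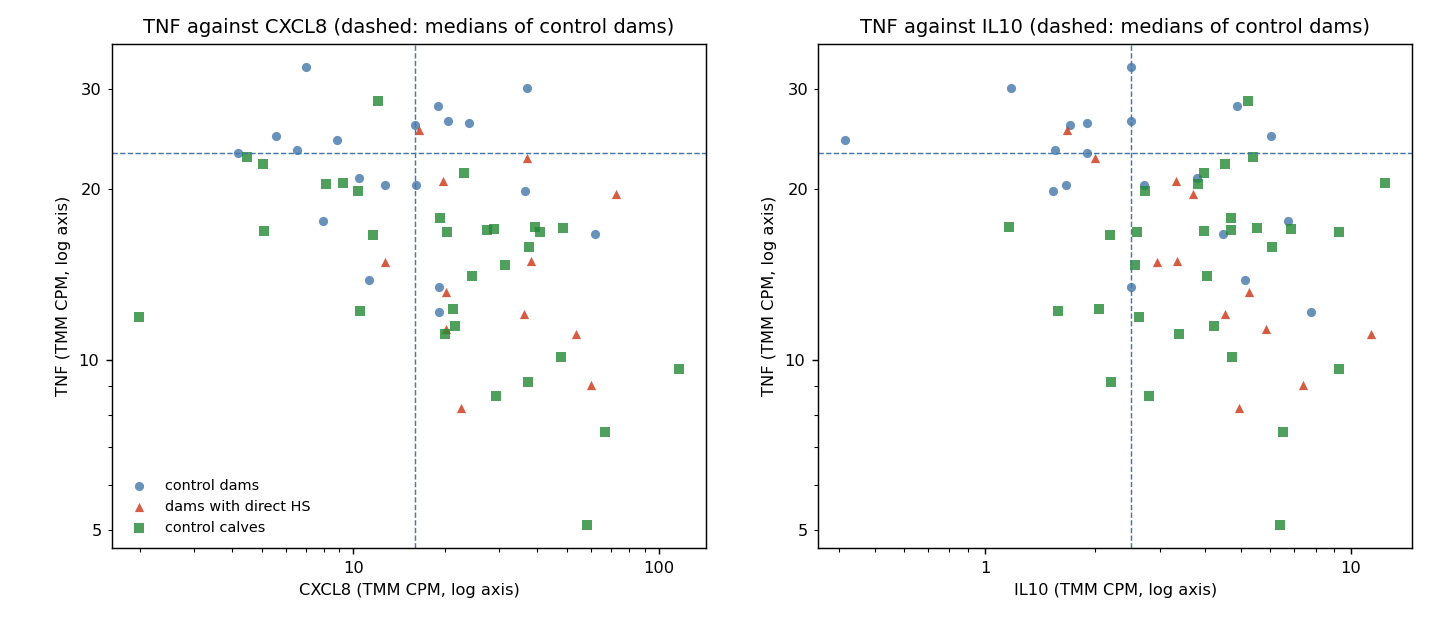
TMM-normalized CPM (log axes) of *TNF* against *CXCL8* (left) and against *IL10* (right) in each animal of the 3 groups, with the medians of the control dams as dashed lines. In the left panel, 10 of 12 dams with direct HS lie at the lower right, with *CXCL8* above and *TNF* below these medians.

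Correlations between the members were computed on log2 CPM within each group, for 18 relations adjusted together, with 100000 permutations. Of these, 2 had an adjusted p below 0.05. *TNF* and *IL10* were negatively correlated in dams with direct HS (n = 12), with Pearson's r of -0.81 (permutation p = 0.00156, adjusted p = 0.0281) and Spearman's rho of -0.86 (permutation p = 0.00073, adjusted p = 0.0131). Without HS-IU_1568 and HS-IU_1516, the dams farthest from the median of *TNF*, r was -0.82. In control dams, r was -0.47 (permutation p = 0.0447, adjusted p = 0.201) and rho -0.37 (permutation p = 0.116, adjusted p = 0.335), and in control calves r was 0.04 (permutation p = 0.826, adjusted p = 0.929) and rho 0.11 (permutation p = 0.572, adjusted p = 0.735).

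*CXCL8* and *TNF* were negatively correlated in control calves (n = 30), with r of -0.51 (permutation p = 0.00420, adjusted p = 0.0378) and rho of -0.53 (permutation p = 0.00292, adjusted p = 0.0263). Without HS-IU_2013 and HS-IU_2015, the calves farthest from the median of *CXCL8*, r was -0.62. Control dams had r of -0.17 (permutation p = 0.496, adjusted p = 0.687) and rho of -0.09 (permutation p = 0.699, adjusted p = 0.839). Dams with direct HS had r of -0.16 (permutation p = 0.606, adjusted p = 0.727) and rho of -0.29 (permutation p = 0.367, adjusted p = 0.599). Whether these correlations differ between groups was not tested. For *IL1B* and *TNF*, r was 0.36 in control dams, 0.61 in dams with direct HS and 0.25 in control calves, with adjusted permutation p of 0.397, 0.188 and 0.423. Without HS-IU_1835 and HS-IU_1516, r of *IL1B* and *TNF* in dams with direct HS was 0.41. *IL1B* and *CXCL8* had r of 0.04, 0.20 and -0.16 in the same order (adjusted permutation p = 0.935, 0.710 and 0.595). For this pair, Spearman's rho was -0.02, -0.02 and -0.16 (adjusted permutation p = 0.957, 0.957 and 0.599), and in dams with direct HS r was -0.41 without HS-IU_1835 and HS-IU_1516, so no direction is given for it.

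**Figure D5:**
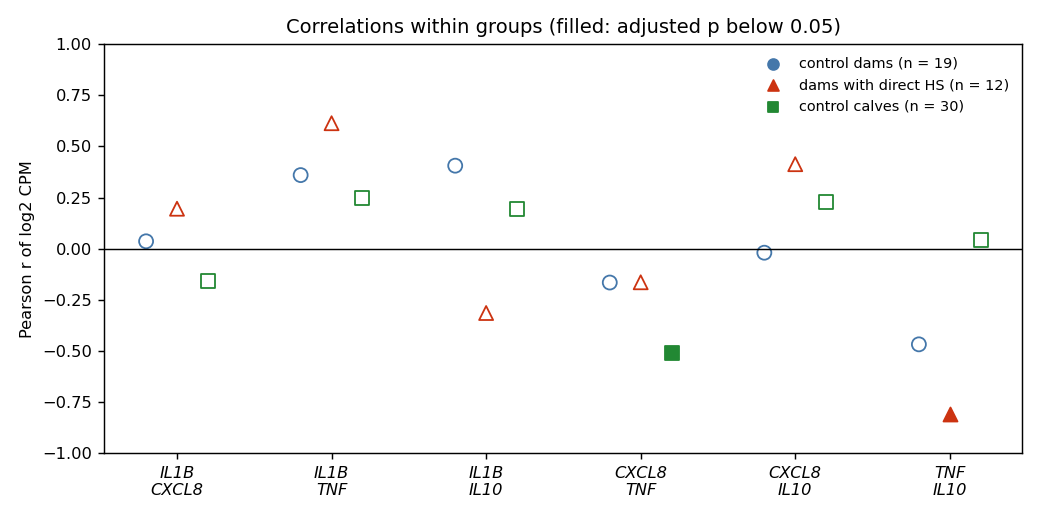
Pearson's r of log2 CPM for each pair of cytokines within control dams (circles, n = 19), dams with direct HS (triangles, n = 12) and control calves (squares, n = 30), where filled symbols have an adjusted permutation p below 0.05. The filled symbols are *TNF* with *IL10* in dams with direct HS (r of -0.81) and *CXCL8* with *TNF* in control calves (r of -0.51).

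The gene most like each cytokine across the 61 animals was looked for among 11754 genes, by Pearson's r of log2 CPM after the mean of each group had been subtracted. For *IL1B* it was ENSBTAG00000013334 (r of 0.85), for *CXCL8* ENSBTAG00000000585 (0.67), for *TNF* ENSBTAG00000045744 (0.62) and for *IL10* ENSBTAG00000021805 (0.66). These genes have no name in the sources used here, and the values are given as a description. In the same measure, *TNF* had r of 0.34 with *IL1B*, -0.38 with *CXCL8* and -0.26 with *IL10*, and *IL1B* had r of -0.06 with *CXCL8*. No cytokine was among the 3 genes most like another.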

How the data were processed

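Libraries were made by oligo-dT capture from leukocyte RNA and read from 1 end. The authors deposited raw counts of reads per gene and library, trimmed with cutadapt 4.2, checked with FastQC 0.12.1 and mapped to ARS-UCD1.2 and counted with STAR 2.7.11a. The strand setting of the counting is not given in the sources used here. Counts of 63 libraries were read. Groups were taken from the labels. The labels hold no calving-year-season, parity, age or genomic PCs, so no such covariate was fitted.

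Tests took genes whose mean count over the libraries compared reached 14, and were run with edgeR 4.0.16 in R 4.3.3 (TMM, quasi-likelihood test, Benjamini-Hochberg over all genes tested, no covariates). The SE was the size of the log2 fold change divided by the square root of F. TMM factors for the CPM came from all 63 libraries, and a prior count of 2 was added for log2 CPM. The code of the test was checked on counts simulated from dispersions that edgeR itself had fitted. Such a check does not cover outlying animals or season. Alternatives were DESeq2 1.42.0, limma-voom 3.58.1, RLE factors, no filter, filterByExpr, robust dispersions, log2 library size, 3 groups in 1 fit and each animal left out. The first surrogate variable (sva 3.50.0), the comparison of dams with direct HS with calves and a fit without 3 calves were added after the data had been seen. Of the 37063 reference genes, 0 had an Ensembl identifier, so lists of pathway genes and of leukocyte markers could not be matched. Names of the members were taken with their identifiers as given for this work, since the counts hold identifiers alone. Named genes were the members and the gene most like each. Sequences were not used here. The members and lists were chosen with earlier results of these data known.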

Additional observations from a re-analysis of the deposited data

Results flagged for a closer look

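HS-IU_1804, the dam without an HS status in its label, had values of 2 cytokines above every control dam, although it entered no comparison. It is not an ordinary dam in these data, and the study left it out of its comparison of dams because it clustered with calves. Over 11754 genes, its root mean square difference in log2 CPM was 0.951 from the mean of the dams and 0.914 from the mean of the calves. The other 31 dams were at most 0.587 from the mean of the dams and at least 0.615 from that of the calves. Of the 30 control calves, HS-IU_2015 was 0.974 from the mean of the calves and the others at most 0.733, so HS-IU_1804 was far from both ages. It had 153 CPM of *CXCL8* (834 reads), where control dams reached at most 61.7 CPM and all 12 dams with direct HS were lower. It had 10.4 CPM of *IL10* (57 reads), where control dams reached at most 7.77 CPM and 11 of 12 dams with direct HS were lower. By library size alone, its levels were 119 CPM of *CXCL8* and 8.15 CPM of *IL10*, against at most 64.7 and 7.45 CPM in control dams. Its *TNF* of 9.35 CPM was below every control dam, and its *IL1B* of 583 CPM was within their range. Against the 30 control calves, its *CXCL8* was above all 30 (at most 117 CPM), and its *IL10* (at most 12.4 CPM in calves) and *IL1B* were each above 29. Its *TNF* was within their range, with 4 calves lower. It is 1 library, so these values have no replicate, and their cause was not tested.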

How the results depend on the processing

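In the comparisons of dams with direct HS and of calves with control dams, the direction of the differences in the 4 cytokines and the calls of *IL1B* and *TNF* in calves did not change in any setting tried. Dams with direct HS were compared with calves in 1 fit without alternatives. Between dams with direct HS and control dams, *TNF* came past the adjusted p of 0.05 in DESeq2 (log2 fold change -0.54), limma-voom (-0.57) and with the first surrogate variable as a covariate (-0.56), and the other 6 settings kept it above. With 1 animal left out, the log2 fold change in dams ranged from -0.63 to -0.47 for *TNF*, from 0.76 to 1.11 for *CXCL8*, from -0.31 to -0.08 for *IL1B* and from 0.35 to 0.65 for *IL10*. In calves against control dams it ranged from 0.46 to 0.83 for *CXCL8* and from 0.42 to 0.62 for *IL10*. The 310 genes past the threshold in dams became 503 in DESeq2, 136 without the filter on low counts, 65 in the fit of 3 groups and 621 with the surrogate variable, and ranged between 130 (HS-IU_1516 left out) and 599 (HS-IU_1568 left out) over the fits lacking 1 dam. Of the correlations, that of *IL1B* and *CXCL8* in dams with direct HS changed sign, to r of -0.41, without HS-IU_1835 and HS-IU_1516, and its rho of -0.02 in each group of dams had the opposite sign to r. The cause of these changes was not tested. No member fell under the limit of low counts, so the permutation test planned for such genes was not needed. No paired analysis was possible because the labels do not tie calves to dams and give no replicate numbers. Counts of *IL10* as low as 3 reads limit what can be said of single animals.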

Other observations

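HS-IU_2048, the calf labelled as heat stressed, had 153 CPM of *IL1B*, 35.8 CPM of *CXCL8*, 17.7 CPM of *TNF* and 3.33 CPM of *IL10*. Each of these was within the range of the 30 control calves, of which 3 were lower in *IL1B*, 21 in *CXCL8*, 22 in *TNF* and 10 in *IL10*. With 1 such calf, no test of HS in calves was made.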
